A study of Mus musculus with 9 samples.

Results

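The cell cycle and proliferation genes described here are 36 genes chosen by symbol, from DNA replication factors to mitotic kinases and motors, among the 55401 genes counted in mouse gastrocnemius, a calf muscle. The muscles came from wild-type FVB mice aged 2 to 3 months and were collected 7 weeks after injection of AAV-GFP-MBNL1∆, of AAV-GFP or of saline. AAV-GFP-MBNL1∆ and AAV-GFP are adeno-associated virus vectors with and without the truncated RNA-binding protein MBNL1∆, which the series title calls a decoy for expanded CUG repeats, the repeats that cause a form of myotonic dystrophy, and wild-type mice carry no such expansion. Each group had 3 RNA-seq libraries, and the labels give no vector dose, no promoter for the transgenes and no sex. They also do not say that the libraries of a group came from separate animals, so the p-values below measure the spread between libraries, which may be technical. All 36 genes passed the filter on low counts, although Ccnb1 and Bub1 passed it only through the AAV-GFP libraries.

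The cell cycle runs through ordered phases in which DNA is copied (S phase) and the copies are pulled apart (mitosis). Cyclins switch on cyclin-dependent kinases, E2F factors switch on the replication genes before S phase, and a later wave led by FoxM1 and by repressor complexes that let go of their targets brings up the mitotic genes. Adult muscle fibres are post-mitotic, so in this tissue the transcripts of dividing cells are known mainly from activated satellite cells, from cells of the connective tissue and vessels, and from infiltrating leukocytes.

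Library totals ran from 44603618 counts (AAV-GFP 3) to 76970849 counts (saline 3). Levels are given as CPM, the counts scaled to library sizes that were adjusted by the trimmed mean of M values, and a gene was called where edgeR's quasi-likelihood test gave a Benjamini-Hochberg adjusted p under 0.05 over the 18514 genes tested. The muscle identity was plain in every library, with a summed 167100 to 191089 CPM of 9 fibre genes in AAV-GFP-MBNL1∆ muscle, 89833 to 149646 CPM in AAV-GFP muscle and 153019 to 190993 CPM in saline muscle. The AAV-GFP libraries stood apart from each other more than those of the other groups. Sex also followed the groups. Xist, the RNA of the inactive X chromosome, was at 0.0182 to 0.0902 CPM in the AAV-GFP-MBNL1∆ libraries and at 105 to 136 CPM in the AAV-GFP and saline libraries, so sex and AAV-GFP-MBNL1∆ cannot be told apart in either comparison of that group. Y-linked genes were high in all AAV-GFP-MBNL1∆ libraries, and AAV-GFP 1 held a low level of them too: Eif2s3y was at 51.1, 60.4 and 50.5 CPM in AAV-GFP-MBNL1∆ muscle, at 1.11 CPM in AAV-GFP 1 and at 0 in AAV-GFP 2 and 3 and all saline libraries, and Uty at 0.741 CPM in AAV-GFP 1 and at most 0.0221 CPM in the other AAV-GFP and saline libraries. The part of this signal in the values of AAV-GFP 1 was not tested, and the counts of calls and medians of the 36 genes are also given without that library. Mbnl1, whose truncated form the vector carries, averaged 642 ± 68.1 CPM in AAV-GFP-MBNL1∆, 436 ± 71.2 CPM in AAV-GFP and 540 ± 83.2 CPM in saline muscle (SD, n = 3 each), and these counts do not separate vector from native transcripts.

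Most of the 36 genes were at their highest in a single library, AAV-GFP 2, which held the highest value of all 9 libraries for 33 of them. AAV-GFP 1 was intermediate and AAV-GFP 3 the lowest of its group, and the order 2, 1, 3 held for 34 genes. The summed level of the 36 genes was 109 to 123 CPM in AAV-GFP-MBNL1∆ muscle, against 185, 389 and 107 CPM in AAV-GFP 1, 2 and 3 and 94.2 to 97.7 CPM in saline muscle. The median gene lay above its saline mean by 0.56, 0.68 and 0.05 on the log2 scale in AAV-GFP-MBNL1∆ 1, 2 and 3, and by 1.97, 3.44 and 0.23 in AAV-GFP 1, 2 and 3. AAV-GFP 3 was thus close to saline muscle, although it was above every saline library for 22 genes, and it was inside or below the range of the AAV-GFP-MBNL1∆ libraries for 31 genes. In 11 genes the SD of the AAV-GFP group exceeded its mean. Because these are bulk samples, more dividing cells and more RNA per dividing cell cannot be told apart.

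**Figure D1:**
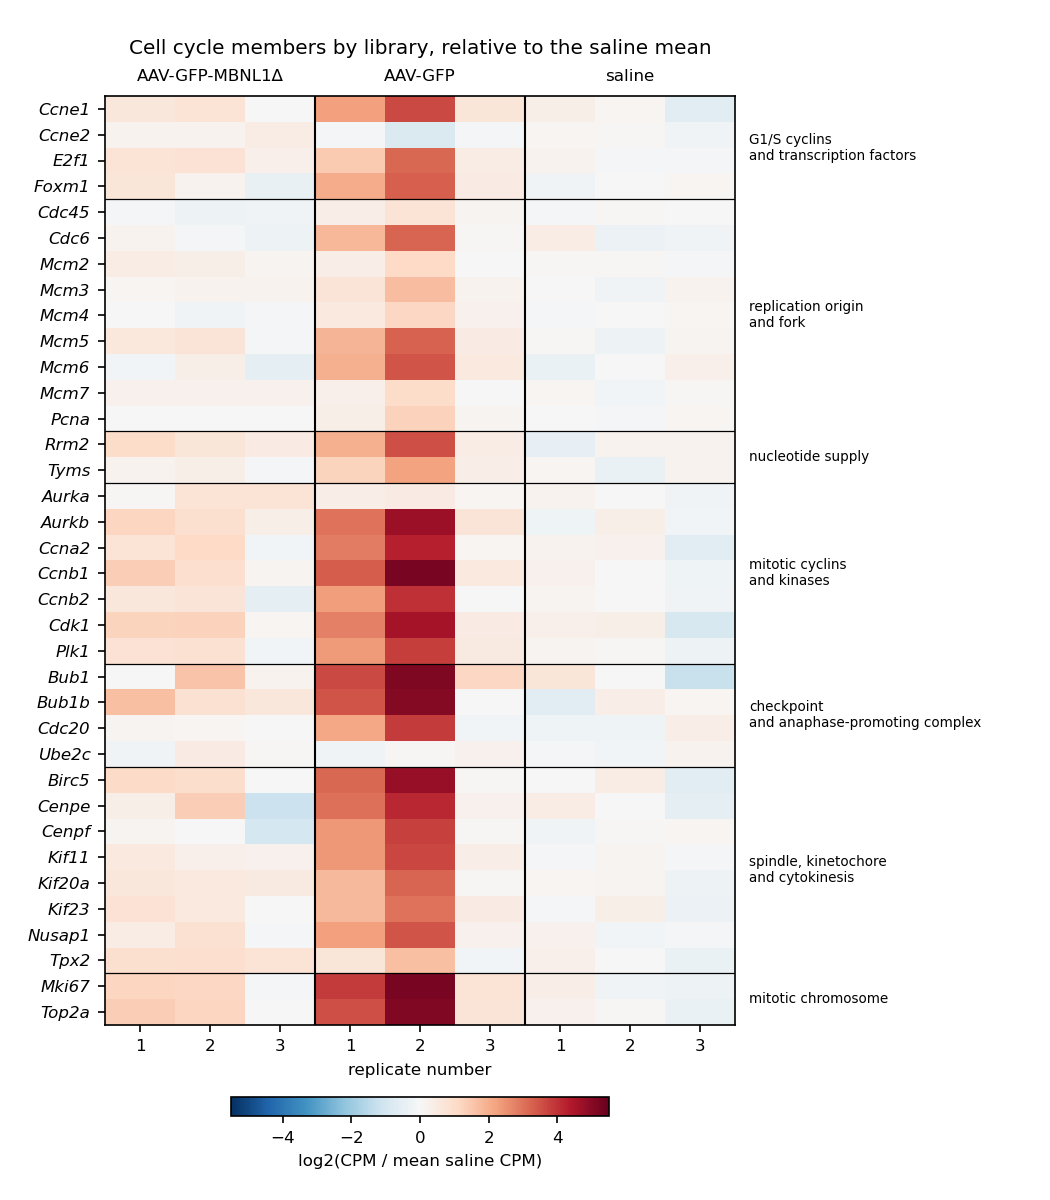
Level of each of the 36 genes in each library as log2 of its CPM over the mean saline CPM, by role (rows) and by group and replicate number (columns). AAV-GFP 2 is the darkest column and AAV-GFP 1 the next, while AAV-GFP 3 and the AAV-GFP-MBNL1∆ libraries stay near the saline mean; Ccne2 and Ube2c are the rows without the order 2, 1, 3 in AAV-GFP muscle, and in Aurka AAV-GFP-MBNL1∆ 2 and 3 are above AAV-GFP 2.

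Against saline, the AAV-GFP estimates were higher for 35 of the 36 genes, with a median log2 fold change of 2.46 beside -0.01 over all genes tested, yet no gene was called. The background was also 0%, since no gene at all passed the test in this comparison. At an unadjusted p under 0.05, 32 members were higher and 0 lower, beside 15.6% and 6.35% of all genes tested. All 3 AAV-GFP libraries were above all 3 saline libraries for 21 members, beside 14.7% of all genes. DESeq2, run on the same counts, called 28 members higher beside 8.80% of all genes. The count turned on single libraries: without AAV-GFP 3, edgeR called 33 members higher beside 15.3% of all genes, and without AAV-GFP 2 it called 0 beside 0.0268% and the median was 1.39. Without AAV-GFP 1 it called 0 members, the share of all genes not being given, and the median was 2.63. Limma-voom with weights that count down the more variable libraries called 33 higher beside 16.6% of all genes. Ccnb1 and Bub1 are in the counts of 35, 32, 21, 28 and 33. Both passed the filter only through the AAV-GFP libraries, where they are high, so they are no independent evidence here. Counts without them are not given for this comparison.

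Between the vectors, 15 of the 36 genes fell in AAV-GFP-MBNL1∆ against AAV-GFP muscle and 0 rose, where 10.3% of all genes fell and 10.8% rose. They were Ccne1, Foxm1, Cdc6, Cdc45, Mcm4, Mcm6, Tyms, Aurkb, Ccnb1, Bub1, Cdc20, Cenpf, Kif11, Mki67 and Top2a, and their adjusted p lay between 0.0334 for Mcm6 and 0.0492 for Tyms. Ccnb1 and Bub1 entered the test only through the AAV-GFP libraries, where they are high, so their calls are no independent evidence; without them 13 of 34 fell. Plk1, the nearest gene not called, had an adjusted p of 0.0557. The median log2 fold change was -2.14 over the 36 genes and -0.06 over all genes tested. At an unadjusted p under 0.05, 30 members were lower beside 22.7% of all genes. In all, 5 members (Mcm4, Mcm6, Cdc45, Pcna and Tyms) had all 3 AAV-GFP-MBNL1∆ libraries below all 3 AAV-GFP libraries, and 1 (Ccne2) had them all above, beside 19.2% of all genes in each direction. The calls were at the edge of the threshold. The count was 0 when any saline library, any AAV-GFP-MBNL1∆ library or AAV-GFP 1 was left out (median log2 fold change -2.29 without AAV-GFP 1). The share of all genes is not given for those refits, so their counts of 0 are no result about the members. The count was also 0 when only these 2 groups were fitted, where few genes fell at all (2.07%). Without AAV-GFP 2 the count was 2 (Mcm4 and Mcm6), beside 9.42% of all genes, and without AAV-GFP 3 it was 30, beside 22.4%. DESeq2 called 30 lower and 1 (Ccne2) higher, beside 16.2% and 14.4% of all genes, and limma-voom with library weights called the same numbers beside 26.2% and 24%. Ccnb1 and Bub1 are in each of these counts of 30, where they are no independent evidence either. Over the 9 refits that left out a library, the highest adjusted p of the 15 genes lay between 0.116 (Mcm4) and 0.158 (Tyms).

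Against saline, AAV-GFP-MBNL1∆ muscle had 0 members called in either direction, where 4.76% of all genes rose and 4.60% fell. At an unadjusted p under 0.05, 1 member was higher and 0 lower, beside 13.1% and 12.9% of all genes. Each gene has 1 spread shared by all 9 libraries, so the wide AAV-GFP spread enters this test too. For Mki67 the SD was 18.6 CPM in AAV-GFP, 0.749 CPM in AAV-GFP-MBNL1∆ and 0.250 CPM in saline muscle. A count below the background is therefore no result about the members. With only these 2 groups fitted, 2 of 34 members tested (Rrm2 and Tpx2) were called higher, beside 12.9% of all genes. DESeq2 called 0 members in either direction, beside 8.64% higher and 6.96% lower. The median log2 fold change was 0.47, beside 0.02 over all genes tested. All 3 AAV-GFP-MBNL1∆ libraries were above all 3 saline libraries for 9 members and below for 1 (Cdc45), beside 22.7% and 20% of all genes. AAV-GFP-MBNL1∆ 3 was the lowest of its group for 27 members and exceeded every saline library for 11, against 25 for AAV-GFP-MBNL1∆ 1 and 30 for AAV-GFP-MBNL1∆ 2. Both vector comparisons use the same saline libraries, and the AAV-GFP libraries enter the remaining comparisons, so the 3 sets of estimates are not independent of each other.

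**Figure D2:**
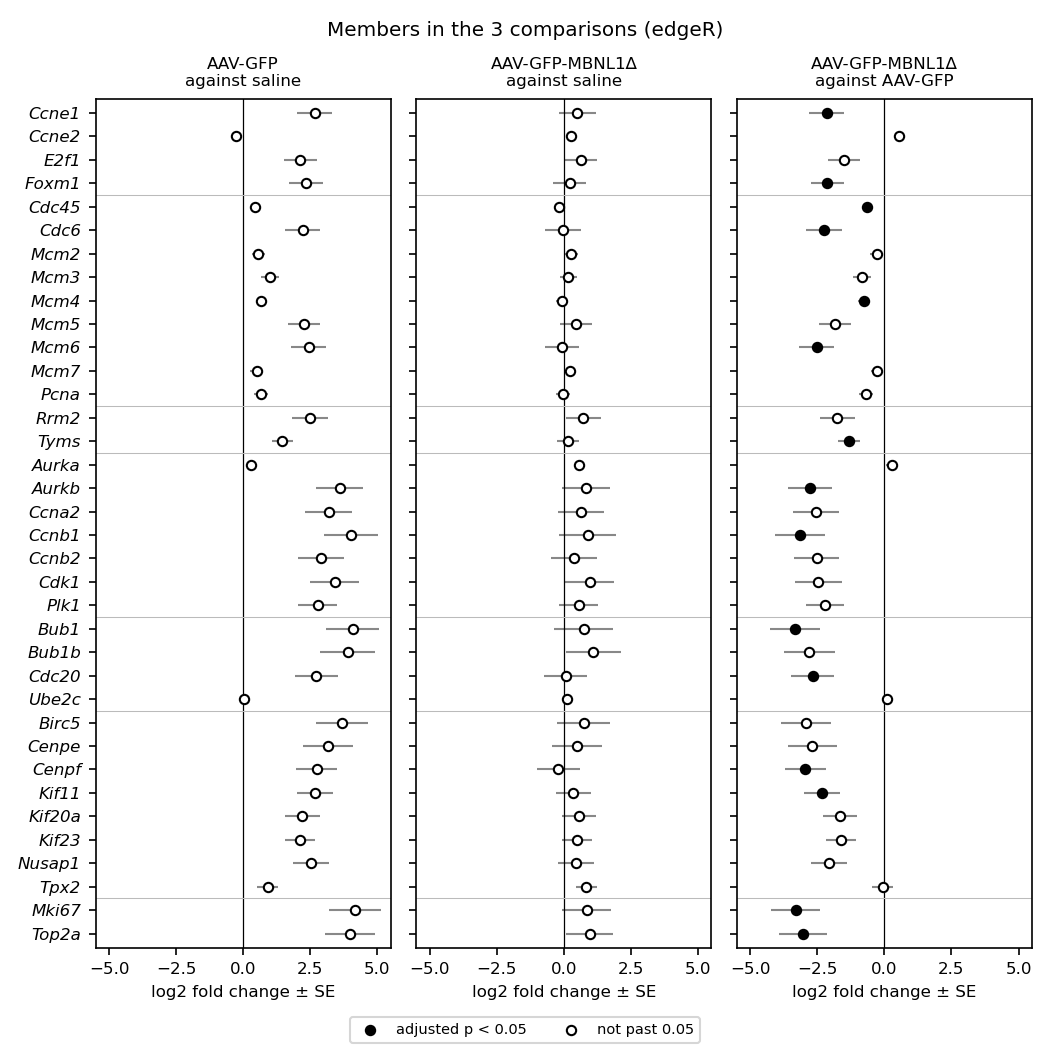
Log2 fold change with its standard error for each gene in the 3 comparisons, by role; filled points have an adjusted p under 0.05. The 15 filled points are all left of 0 in AAV-GFP-MBNL1∆ against AAV-GFP, and none is filled in the comparisons with saline.

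Mki67 and Top2a were among the members with the widest differences. Mki67 encodes Ki-67, the standard marker of cycling cells, which coats mitotic chromosomes (ENSMUSG00000031004.8, chromosome 7, 135689784 to 135716361, minus strand, GRCm38). It was at 2.32, 2.26 and 0.989 CPM in AAV-GFP-MBNL1∆ muscle, 14.7, 38.4 and 1.70 CPM in AAV-GFP muscle and 1.31, 0.909 and 0.858 CPM in saline muscle. AAV-GFP 3 lay inside the AAV-GFP-MBNL1∆ range but above all saline libraries. The log2 fold change of Mki67 was -3.31 ± 0.92 (SE) for AAV-GFP-MBNL1∆ against AAV-GFP (adjusted p = 0.0401), 4.16 ± 0.96 for AAV-GFP against saline (adjusted p = 0.0855) and 0.85 ± 0.90 for AAV-GFP-MBNL1∆ against saline (adjusted p = 0.600). Top2a, the topoisomerase that untangles replicated chromosomes (ENSMUSG00000020914.17, chromosome 11, 98992943 to 99024189, minus strand), had 2.56, 2.29 and 1.03 CPM in AAV-GFP-MBNL1∆ muscle, 11.7, 34.0 and 1.66 CPM in AAV-GFP muscle and 1.18, 1.06 and 0.780 CPM in saline muscle. It followed Mki67 library by library. Its log2 fold change for AAV-GFP-MBNL1∆ against AAV-GFP was -3.01 ± 0.89 (adjusted p = 0.0473).

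**Figure D3:**
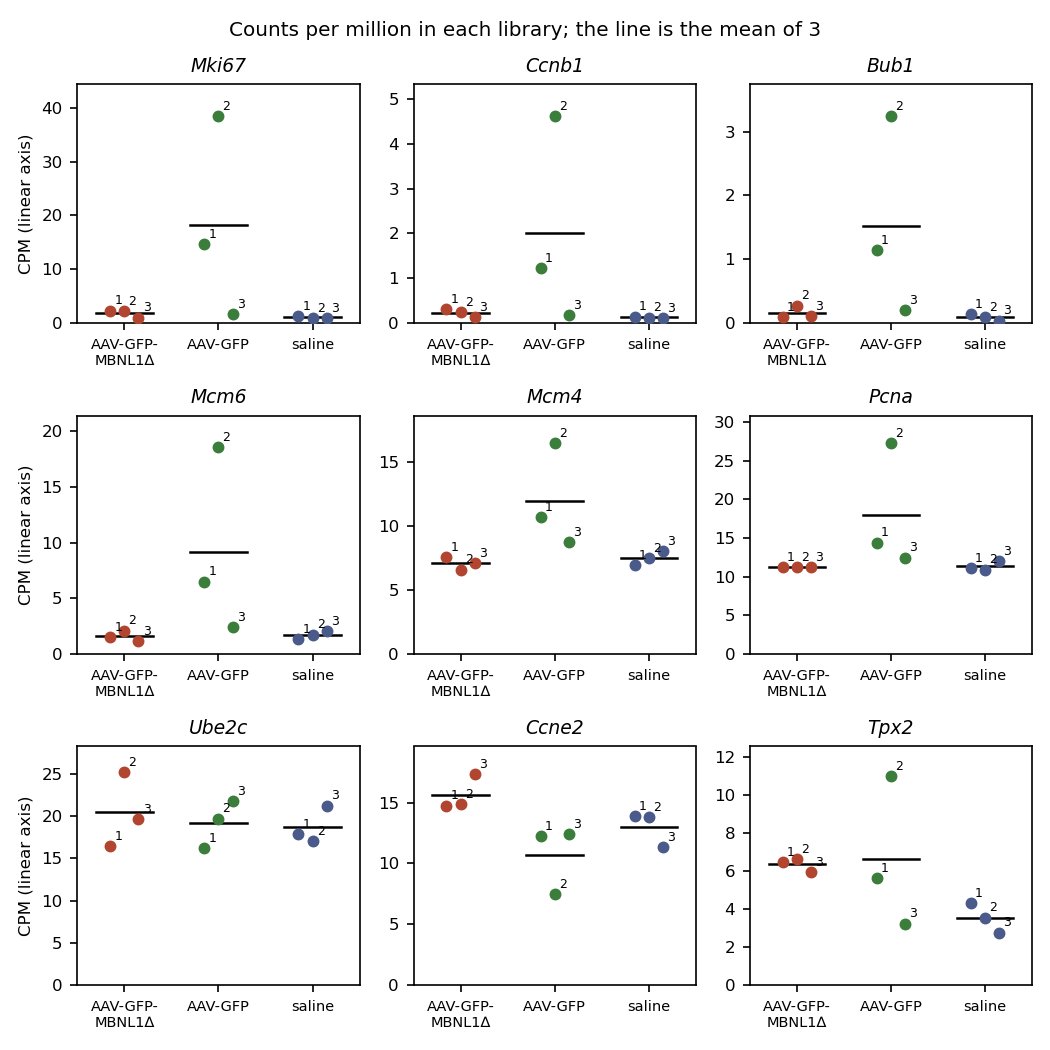
CPM of 9 members in each library on a linear axis from 0, with the replicate number beside each point and the group mean as a line. Mki67, Ccnb1, Bub1 and Mcm6 are spread widely in AAV-GFP muscle with replicate 2 on top, Mcm4 and Pcna show the same order over a high floor, Ube2c is alike in the 3 groups, and Ccne2 is lowest in AAV-GFP 2.

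The G1/S regulators were split between genes that followed this order and Ccne2, which did not. E2f1, the factor that turns on replication genes, had 1.28, 1.33 and 0.929 CPM in AAV-GFP-MBNL1∆ muscle, 2.03, 6.82 and 0.996 CPM in AAV-GFP muscle and 0.852, 0.712 and 0.702 CPM in saline muscle. Both vector groups were above all saline libraries, but neither difference was called. Ccne1 (cyclin E1, the CDK2 partner at the G1/S step) fell to 0.421, 0.473 and 0.285 CPM in AAV-GFP-MBNL1∆ muscle, against 1.30, 3.44 and 0.443 CPM in AAV-GFP muscle, with 0.346, 0.303 and 0.182 CPM in saline muscle. Foxm1, the driver of the mitotic gene wave, fell to 1.05, 0.764 and 0.509 CPM in AAV-GFP-MBNL1∆ muscle, against 2.73, 6.47 and 0.908 CPM in AAV-GFP muscle, with 0.592, 0.681 and 0.728 CPM in saline muscle. The log2 fold changes were -2.16 ± 0.65 for Ccne1 (adjusted p = 0.0478) and -2.13 ± 0.62 for Foxm1 (adjusted p = 0.0439). Ccne2, the second cyclin E, had 14.8, 14.9 and 17.3 CPM in AAV-GFP-MBNL1∆ muscle, 12.3, 7.47 and 12.4 CPM in AAV-GFP muscle and 13.9, 13.8 and 11.3 CPM in saline muscle. AAV-GFP 2 was its lowest library, the opposite of Ccne1, and its log2 fold change for AAV-GFP-MBNL1∆ against AAV-GFP was 0.55 ± 0.19 (adjusted p = 0.0648). Without AAV-GFP 2 or without AAV-GFP 3 edgeR called it higher, beside 10.9% and 12.5% of all genes.

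Per kilobase of exon, the replication genes fall into a set with low saline levels and wide differences (Cdc6, Mcm5 and Mcm6) and a set with higher saline levels and narrow ones. The MCM2 to MCM7 proteins form the ring that unwinds DNA at the fork, CDC6 loads it onto origins, CDC45 turns it on and PCNA clamps the polymerases to DNA. Mcm6 (ENSMUSG00000026355.11, chromosome 1, 128331590 to 128359664, minus strand) fell to 1.55, 2.11 and 1.17 CPM in AAV-GFP-MBNL1∆ muscle, against 6.51, 18.6 and 2.44 CPM in AAV-GFP muscle, with 1.31, 1.74 and 2.03 CPM in saline muscle. No AAV-GFP-MBNL1∆ library reached the lowest AAV-GFP library, and the log2 fold change was -2.52 ± 0.65 (adjusted p = 0.0334). Cdc6 fell to 0.541, 0.436 and 0.390 CPM in AAV-GFP-MBNL1∆ muscle, against 1.68, 4.31 and 0.487 CPM in AAV-GFP muscle, with 0.621, 0.379 and 0.403 CPM in saline muscle. Mcm5 had 2.35, 2.55 and 1.48 CPM in AAV-GFP-MBNL1∆ muscle, 5.72, 14.6 and 2.1 CPM in AAV-GFP muscle and 1.63, 1.29 and 1.74 CPM in saline muscle. Within AAV-GFP muscle its order was that of Mcm6, but AAV-GFP 3 lay inside the AAV-GFP-MBNL1∆ range and the difference was not called (log2 fold change -1.82 ± 0.60, adjusted p = 0.0601).

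Mcm4 and Cdc45 fell by less but varied less. Mcm4 (ENSMUSG00000022673.5, chromosome 16, 15623897 to 15637400, minus strand) was at 7.55, 6.58 and 7.12 CPM in AAV-GFP-MBNL1∆ muscle, against 10.7, 16.4 and 8.72 CPM in AAV-GFP muscle, with 6.93, 7.48 and 8.05 CPM in saline muscle. Cdc45 was at 2.42, 2.15 and 2.25 CPM in AAV-GFP-MBNL1∆ muscle, against 3.29, 4.41 and 2.86 CPM in AAV-GFP muscle, with 2.51, 2.73 and 2.54 CPM in saline muscle. In both genes every AAV-GFP library was above all libraries of the other groups, including AAV-GFP 3. The log2 fold changes for AAV-GFP-MBNL1∆ against AAV-GFP were -0.76 ± 0.21 for Mcm4 and -0.63 ± 0.17 for Cdc45 (adjusted p = 0.0366 for each). Pcna had 11.2 CPM in each AAV-GFP-MBNL1∆ library, 14.4, 27.2 and 12.5 CPM in AAV-GFP muscle and 11.1, 10.9 and 12.1 CPM in saline muscle. Its groups did not overlap between the vectors, but the adjusted p was 0.0810. Mcm2, Mcm3 and Mcm7 averaged 7.2 ± 0.621, 6.01 ± 0.182 and 7.73 ± 0.0356 CPM in AAV-GFP-MBNL1∆ muscle, 8.73 ± 3.58, 10.7 ± 5.85 and 9.32 ± 3.65 CPM in AAV-GFP muscle and 5.92 ± 0.416, 5.35 ± 0.705 and 6.6 ± 0.605 CPM in saline muscle (SD, n = 3 each), and none of these 3 was called in any comparison.

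In 9 replication genes the median log2 fold change for AAV-GFP against saline was 0.68, the smallest of the 7 role groups, and 4 of the 9 fell in AAV-GFP-MBNL1∆ against AAV-GFP, beside 10.3% of all genes. Of the nucleotide-supply enzymes, Tyms (thymidylate synthase) fell to 1.26, 1.36 and 1.03 CPM in AAV-GFP-MBNL1∆ muscle, against 2.55, 5.10 and 1.44 CPM in AAV-GFP muscle, with 1.18, 0.863 and 1.26 CPM in saline muscle (log2 fold change against AAV-GFP -1.32 ± 0.41, adjusted p = 0.0492). Rrm2, the small subunit of ribonucleotide reductase, had 2.81, 2.24 and 1.95 CPM in AAV-GFP-MBNL1∆ muscle, 5.40, 16.3 and 1.88 CPM in AAV-GFP muscle and 1.04, 1.59 and 1.60 CPM in saline muscle. Its AAV-GFP-MBNL1∆ and AAV-GFP libraries were all above saline, and AAV-GFP 3 was the lowest of these 6; no Rrm2 difference was called.

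Promoters of 6 members are printed below to stand for replication, mitotic kinase and spindle roles. They are the members with the smallest p for AAV-GFP against saline in each of these 3 roles, among those with a RefSeq promoter. The choice was thus made on these same data, and a link between letters and levels was not tested. Each sequence runs 5′ to 3′ on the gene's own strand from 250 bases before the RefSeq start to 50 bases after it (GRCm38.p6). Capitals mark every match, on either strand, to 3 kinds of letters, and matches that overlap merge into a longer run of capitals. The first is CCAAT, the box bound by NF-Y. The second is the cell cycle homology region (CHR), searched as TTTGAA and, in its other form, as TTCGAA. The third is E2F-type letters, searched as TTCCCGC, with the variant forms TTGGCGC and also TTCGCGC. The Mcm6 window (chr1:128359656-128359955, minus strand) and the Mcm5 window (chr8:75109259-75109558, plus strand) hold CCAAT and E2F-type letters and no CHR letters.
Mcm6: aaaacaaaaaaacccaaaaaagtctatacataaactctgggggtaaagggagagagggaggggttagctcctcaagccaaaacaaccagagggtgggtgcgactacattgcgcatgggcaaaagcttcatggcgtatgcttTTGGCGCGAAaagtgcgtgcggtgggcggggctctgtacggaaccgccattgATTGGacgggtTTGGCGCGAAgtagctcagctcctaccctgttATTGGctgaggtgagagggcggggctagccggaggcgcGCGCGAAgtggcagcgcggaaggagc
Mcm5: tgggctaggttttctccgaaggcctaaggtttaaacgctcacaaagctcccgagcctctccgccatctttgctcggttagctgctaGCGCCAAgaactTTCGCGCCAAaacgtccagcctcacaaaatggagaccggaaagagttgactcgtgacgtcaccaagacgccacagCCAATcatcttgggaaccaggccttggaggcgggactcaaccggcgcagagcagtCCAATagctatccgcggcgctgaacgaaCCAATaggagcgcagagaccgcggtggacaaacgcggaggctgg

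The mitotic cyclins and kinases had a median log2 fold change of 3.19 for AAV-GFP against saline, and 2 of 7 fell in AAV-GFP-MBNL1∆ against AAV-GFP, beside 10.3% of all genes. Ccnb1, the cyclin B1 that activates CDK1 at mitotic entry (ENSMUSG00000041431.16, chromosome 13, 100778650 to 100786570, minus strand), fell to 0.316, 0.236 and 0.135 CPM in AAV-GFP-MBNL1∆ muscle, against 1.23, 4.61 and 0.177 CPM in AAV-GFP muscle, with 0.144, 0.121 and 0.104 CPM in saline muscle. The saline values rest on 26 counts in all 3 libraries together, and the gene passed the filter only through the AAV-GFP libraries. Aurkb, the kinase that corrects chromosome attachments, fell to 0.496, 0.400 and 0.270 CPM in AAV-GFP-MBNL1∆ muscle, against 1.73, 5.77 and 0.354 CPM in AAV-GFP muscle, with 0.188, 0.273 and 0.195 CPM in saline muscle. The log2 fold changes were -3.14 ± 0.95 for Ccnb1 (adjusted p = 0.0490) and -2.76 ± 0.83 for Aurkb (adjusted p = 0.0481). In both, AAV-GFP 3 lay within the AAV-GFP-MBNL1∆ range and AAV-GFP 1 and 2 lay above it.

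Cdk1, the kinase that cyclin B1 activates, had 0.677, 0.691 and 0.315 CPM in AAV-GFP-MBNL1∆ muscle, 1.94, 6.79 and 0.398 CPM in AAV-GFP muscle and 0.346, 0.363 and 0.156 CPM in saline muscle, and was not called (adjusted p = 0.0736 between the vectors). Plk1, a kinase of mitotic entry and cytokinesis, had 0.602, 0.618 and 0.315 CPM in AAV-GFP-MBNL1∆ muscle, 1.73, 4.89 and 0.487 CPM in AAV-GFP muscle and 0.390, 0.363 and 0.286 CPM in saline muscle. Ccna2 (cyclin A2) and Ccnb2 (cyclin B2) had the same order, with log2 fold changes between the vectors of -2.55 ± 0.85 and -2.53 ± 0.83 and adjusted p of 0.0629 and 0.0616. Aurka, the centrosome kinase, stood apart: it had 5.41, 8.73 and 8.69 CPM in AAV-GFP-MBNL1∆ muscle, 6.55, 6.93 and 5.45 CPM in AAV-GFP muscle and 5.79, 5.15 and 4.43 CPM in saline muscle. It had the lowest adjusted p of the 36 genes for AAV-GFP-MBNL1∆ against saline, 0.110 at a log2 fold change of 0.57 ± 0.20, and was called there only when AAV-GFP-MBNL1∆ 1 was left out (adjusted p = 0.0393). The Ccnb1 window (chr13:100786437-100786736, minus strand) holds CCAAT and E2F-type letters, and the Plk1 window (chr7:122159185-122159484, plus strand) holds CCAAT and CHR letters.
Ccnb1: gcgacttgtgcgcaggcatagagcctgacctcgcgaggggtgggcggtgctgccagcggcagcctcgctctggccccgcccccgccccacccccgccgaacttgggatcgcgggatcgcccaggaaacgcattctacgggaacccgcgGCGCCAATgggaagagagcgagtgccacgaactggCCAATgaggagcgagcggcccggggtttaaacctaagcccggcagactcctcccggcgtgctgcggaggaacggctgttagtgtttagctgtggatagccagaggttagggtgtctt
Plk1: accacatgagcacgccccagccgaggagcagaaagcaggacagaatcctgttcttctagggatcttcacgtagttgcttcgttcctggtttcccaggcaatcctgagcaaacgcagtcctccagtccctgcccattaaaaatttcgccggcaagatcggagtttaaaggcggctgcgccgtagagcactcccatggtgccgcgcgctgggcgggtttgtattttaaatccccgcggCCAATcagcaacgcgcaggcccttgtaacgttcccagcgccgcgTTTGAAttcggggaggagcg

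The checkpoint and anaphase genes included Bub1, whose estimate between the vectors was the widest but which passed the filter on low counts only through the AAV-GFP libraries, and the member nearest to its saline level in AAV-GFP muscle (Ube2c). Bub1, a kinase of the spindle checkpoint (ENSMUSG00000027379.13, chromosome 2, 127801122 to 127831865, minus strand), fell to 0.0902, 0.273 and 0.105 CPM in AAV-GFP-MBNL1∆ muscle, against 1.14, 3.24 and 0.199 CPM in AAV-GFP muscle, with 0.144, 0.0909 and 0.0390 CPM in saline muscle. These saline values stand for 19 counts in all. Cdc20, the activator of the anaphase-promoting complex, fell to 0.511, 0.491 and 0.449 CPM in AAV-GFP-MBNL1∆ muscle, against 2.03, 6.68 and 0.421 CPM in AAV-GFP muscle, with 0.390, 0.394 and 0.598 CPM in saline muscle. AAV-GFP 3 was below all AAV-GFP-MBNL1∆ libraries for Cdc20, so the groups overlapped. The log2 fold changes between the vectors were -3.33 ± 0.93 for Bub1 (adjusted p = 0.0404) and -2.66 ± 0.80 for Cdc20 (adjusted p = 0.0490). Bub1b (BubR1, of the same checkpoint) had 0.632, 0.364 and 0.315 CPM in AAV-GFP-MBNL1∆ muscle, 2.22, 6.66 and 0.199 CPM in AAV-GFP muscle and 0.130, 0.257 and 0.221 CPM in saline muscle, and was not called.

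Ube2c, the ubiquitin-conjugating enzyme of the anaphase-promoting complex, had 16.5, 25.2 and 19.6 CPM in AAV-GFP-MBNL1∆ muscle, 16.2, 19.7 and 21.8 CPM in AAV-GFP muscle and 17.8, 17.1 and 21.2 CPM in saline muscle. The 3 groups overlapped, and its log2 fold changes were 0.04 ± 0.17 for AAV-GFP against saline (-0.01 under upper quartile scaling) and 0.09 ± 0.17 between the vectors. The gene shares 1662 bases with Tnnc2, the fast-muscle troponin C gene on the opposite strand, which averaged 7518 CPM in AAV-GFP-MBNL1∆, 5416 CPM in AAV-GFP and 6448 CPM in saline muscle. Whether reads were counted by strand is not given in the sources used here, so how reads in the overlap were assigned is not known. The counting kept 1190582 to 2831565 ambiguous reads per library out of all genes, and any from this overlap are in neither gene. Shared bases are measured between gene starts and ends, introns included. Of the other members, Ccne2 shares 5622 bases with Ints8, Kif20a 2327 with Cdc23, Ccna2 863 with Exosc9, Mcm7 421 with Ap4m1 and 64 with Cops6, Cdc45 209 with Ufd1 and Cdc20 53 with Elovl1. In all, 9 members overlap a protein-coding gene, 7 of them a gene over 1 CPM in saline muscle. Pcna has a counted pseudogene, Pcna-ps2, at a mean of 6.74 CPM in AAV-GFP-MBNL1∆, 10.3 CPM in AAV-GFP and 6.39 CPM in saline muscle, and reads shared by such copies are uncertain.

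Of the 8 spindle, kinetochore and cytokinesis genes, 2 fell in AAV-GFP-MBNL1∆ against AAV-GFP, beside 10.3% of all genes, and the median log2 fold change for AAV-GFP against saline was 2.60. Kif11, the motor that pushes spindle poles apart (ENSMUSG00000012443.4, chromosome 19, 37376403 to 37421859, plus strand), fell to 0.947, 0.782 and 0.764 CPM in AAV-GFP-MBNL1∆ muscle, against 3.40, 8.26 and 0.841 CPM in AAV-GFP muscle, with 0.606, 0.727 and 0.611 CPM in saline muscle. Cenpf, a kinetochore protein, fell to 0.421, 0.382 and 0.195 CPM in AAV-GFP-MBNL1∆ muscle, against 2.02, 5.17 and 0.398 CPM in AAV-GFP muscle, with 0.332, 0.394 and 0.416 CPM in saline muscle. Both had AAV-GFP 3 inside the AAV-GFP-MBNL1∆ range. Their log2 fold changes were -2.33 ± 0.66 for Kif11 (adjusted p = 0.0419) and -2.94 ± 0.78 for Cenpf (adjusted p = 0.0356).

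Cenpe (a kinetochore motor), Birc5 (survivin, of the chromosomal passenger complex), Nusap1 (a spindle-binding protein), Kif20a and Kif23 (motors of the midzone and cytokinesis) were not called, with log2 fold changes between the vectors of -1.62 (Kif23) to -2.93 (Birc5) and adjusted p of 0.0567 (Birc5) to 0.0887 (Kif20a). Birc5 had 0.526, 0.491 and 0.255 CPM in AAV-GFP-MBNL1∆ muscle, 2.28, 7.05 and 0.266 CPM in AAV-GFP muscle and 0.260, 0.333 and 0.169 CPM in saline muscle. Tpx2, the protein that activates Aurora A on spindles, kept the order 2, 1, 3 in AAV-GFP muscle. Its values in AAV-GFP 1 and 3 were, however, below all AAV-GFP-MBNL1∆ libraries. Tpx2 was at 6.48, 6.62 and 5.95 CPM in AAV-GFP-MBNL1∆ muscle, 5.62, 11 and 3.23 CPM in AAV-GFP muscle and 4.32, 3.54 and 2.76 CPM in saline muscle. All 3 AAV-GFP-MBNL1∆ libraries of Tpx2 were above all saline libraries (log2 fold change 0.84 ± 0.39, adjusted p = 0.210). Without AAV-GFP 2 in the fit, the Tpx2 difference from saline was called (adjusted p = 0.0245), beside 10.3% of all genes higher. With library weights in limma-voom it was the 1 member called, beside 15.4%, and with only these 2 groups fitted Tpx2 and Rrm2 were called, beside 12.9%. The Kif11 window (chr19:37376132-37376431, plus strand) and the Kif23 window (chr9:61946750-61947049, minus strand) both hold CCAAT and CHR letters.
Kif11: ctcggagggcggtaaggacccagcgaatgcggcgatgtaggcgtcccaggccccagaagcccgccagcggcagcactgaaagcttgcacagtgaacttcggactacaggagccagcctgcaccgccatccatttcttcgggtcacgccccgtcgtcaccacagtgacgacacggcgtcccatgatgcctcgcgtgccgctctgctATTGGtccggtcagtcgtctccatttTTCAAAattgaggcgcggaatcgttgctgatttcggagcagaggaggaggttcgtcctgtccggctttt
Kif23: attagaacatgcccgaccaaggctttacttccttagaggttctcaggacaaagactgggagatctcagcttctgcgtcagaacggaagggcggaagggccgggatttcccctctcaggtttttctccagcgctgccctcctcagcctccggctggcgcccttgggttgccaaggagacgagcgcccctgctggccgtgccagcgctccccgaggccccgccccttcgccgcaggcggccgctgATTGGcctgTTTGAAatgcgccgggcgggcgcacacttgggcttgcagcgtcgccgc

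RefSeq promoters were found for 29 of the 36 members, and the letters differed by role. CCAAT occurred in 23 of 29 (79.3%), against 37.9% of all 27025 promoters of this length and 38.0% of the 12141 promoters of genes tested here. TTTGAA or TTCGAA occurred in 16 of 29 (55.2%), against 19.4% of all promoters and 14.2% of those of tested genes. Every one of these 16 also held CCAAT. Among members with mitotic roles it was 13 of 17 (76.5%), and among those with G1/S, replication or nucleotide roles 3 of 12 (25.0%). E2F-type letters went the other way, with 3 of 17 (17.6%) of the mitotic members and 5 of 12 (41.7%) of the G1/S, replication and nucleotide members, against 8.21% of all promoters and 13.6% of those of tested genes. These are descriptions of the letters in this window, with no test.

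Members with low saline levels had the wider differences. Per kilobase of exon, the 18 members with the lower saline levels (0.0210 to 0.160 CPM per kb) had a median log2 fold change of 3.18 for AAV-GFP against saline, and the 18 with the higher levels (0.177 to 7.2 CPM per kb) had a median of 0.95. Bub1 was the lowest and Ube2c the highest in saline muscle. The level and the fold change share the saline libraries, so this is a description only.

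**Figure D4:**
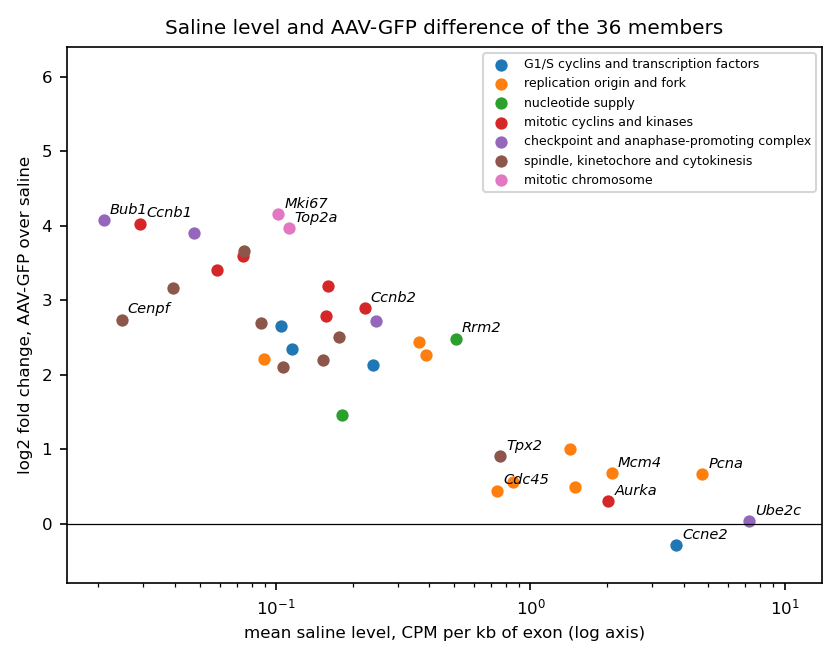
Log2 fold change for AAV-GFP over saline against the mean saline level per kilobase of exon (log axis), coloured by role. The 10 members at 0.739 CPM per kb or more have log2 fold changes of at most 1.0, and the 26 below that level have at least 1.46.

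Leukocyte markers moved with these genes across the libraries. The summed level of 10 T and cytotoxic cell markers was 5.83 to 15.2 CPM in AAV-GFP-MBNL1∆ muscle, 33.2, 98.6 and 6.42 CPM in AAV-GFP 1, 2 and 3, and 0.606 to 0.780 CPM in saline muscle. Of 6 B cell markers the sum was 1.92 to 6.80 CPM in AAV-GFP-MBNL1∆ muscle, 16.6, 38.3 and 1.13 CPM in AAV-GFP 1, 2 and 3 and 0.151 to 0.494 CPM in saline muscle. The sum of 8 macrophage markers was 165 to 230 CPM in AAV-GFP-MBNL1∆ muscle, 411, 1555 and 192 CPM in AAV-GFP 1, 2 and 3 and 90.1 to 114 CPM in saline muscle. The order AAV-GFP 2, 1, 3 was thus that of the cell cycle genes. Cd8a, the co-receptor of cytotoxic T cells, was at 0 in all saline libraries and had 0.827, 1.38 and 0.390 CPM in AAV-GFP-MBNL1∆ muscle and 1.78, 6.59 and 0.199 CPM in AAV-GFP muscle. Of the T cell list 0 of 10 were called between the vectors, beside 10.3% of all genes lower and 10.8% higher. In AAV-GFP-MBNL1∆ against saline 4 rose, beside 4.76% of all genes. Cd3e was among them at an edgeR adjusted p of 0.0337, which reached 0.126 when single libraries were left out. In AAV-GFP against saline 0 of 10 were called, where no gene at all was called. There 10 were higher at an unadjusted p under 0.05, beside 15.6% of all genes.

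The plasma cell markers, led by Jchain, summed to 32.0 to 96.0 CPM in AAV-GFP-MBNL1∆ muscle, 244, 921 and 4.07 CPM in AAV-GFP 1, 2 and 3 and 2.11 to 2.76 CPM in saline muscle, and their Mzb1 was listed at 0 in every library. Jchain was the 1 of 4 plasma cell markers tested that rose in AAV-GFP-MBNL1∆ against saline, beside 4.76% of all genes (edgeR adjusted p = 0.0487, up to 0.167 without single libraries). No macrophage or B cell marker was called in any of the 3 comparisons. The shares of all genes higher and lower were 4.76% and 4.60% for AAV-GFP-MBNL1∆ against saline and 10.8% and 10.3% between the vectors. For AAV-GFP against saline both shares were 0%. Granulocyte markers were at low levels throughout, summing to 0.255 to 1.16 CPM in AAV-GFP-MBNL1∆ muscle, 0.266 to 2.37 CPM in AAV-GFP muscle and 0.0433 to 0.182 CPM in saline muscle. The 2 that were tested, S100a8 and S100a9, were above all saline libraries in every library of both vector groups, without a call, and AAV-GFP 2 was their highest library, while Ly6g was at or near 0 in all libraries. Fibro-adipogenic markers had the same order in AAV-GFP muscle: 6 of them summed to 1394 to 1652 CPM in AAV-GFP-MBNL1∆ muscle, 1711, 2444 and 1308 CPM in AAV-GFP 1, 2 and 3 and 1147 to 1330 CPM in saline muscle. Of these, 3 (Pdgfra, Ly6a and Cd34) fell in AAV-GFP-MBNL1∆ against AAV-GFP, beside 10.3% of all genes, and their calls held in 2, 2 and 4 of the 9 refits that left out a library. Of 7 satellite cell and myoblast markers 3 (Pax7, Myod1 and Chrdl2) rose and 1 (Myog) fell between the vectors, beside 10.8% and 10.3% of all genes. The 7 summed to 56.5 to 76.5 CPM in AAV-GFP-MBNL1∆ muscle, 62.4, 111 and 61.2 CPM in AAV-GFP 1, 2 and 3 and 55.7 to 64.6 CPM in saline muscle. The median ratio of AAV-GFP 2 to AAV-GFP 1 was 1.08 over these 7 genes and 2.57 over the 36 members; Myh3, a developmental myosin, had the highest ratio of the 7, with 36.9 CPM in AAV-GFP 2. Pax7, the satellite cell factor, had 1.89, 1.91 and 2.41 CPM in AAV-GFP-MBNL1∆ muscle, 1.23, 1.33 and 1.04 CPM in AAV-GFP muscle and 1.41, 1.82 and 1.91 CPM in saline muscle, and it rose in AAV-GFP-MBNL1∆ against AAV-GFP (adjusted p = 0.0254), where most cell cycle genes were lower. Myod1, the myoblast factor, rose in AAV-GFP-MBNL1∆ against AAV-GFP (log2 fold change 0.56 ± 0.10, adjusted p = 0.00779) and against saline (0.53 ± 0.09, adjusted p = 0.0126). Myog, the factor of differentiating myoblasts, fell in AAV-GFP-MBNL1∆ against AAV-GFP (-0.97 ± 0.20, adjusted p = 0.0167). Over the 9 refits that left out a library, the calls held in 5 for Pax7, 9 and 8 for Myod1, 4 for Chrdl2 and 7 for Myog. The part of these cell types in the cell cycle values was not tested.

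**Figure D5:**
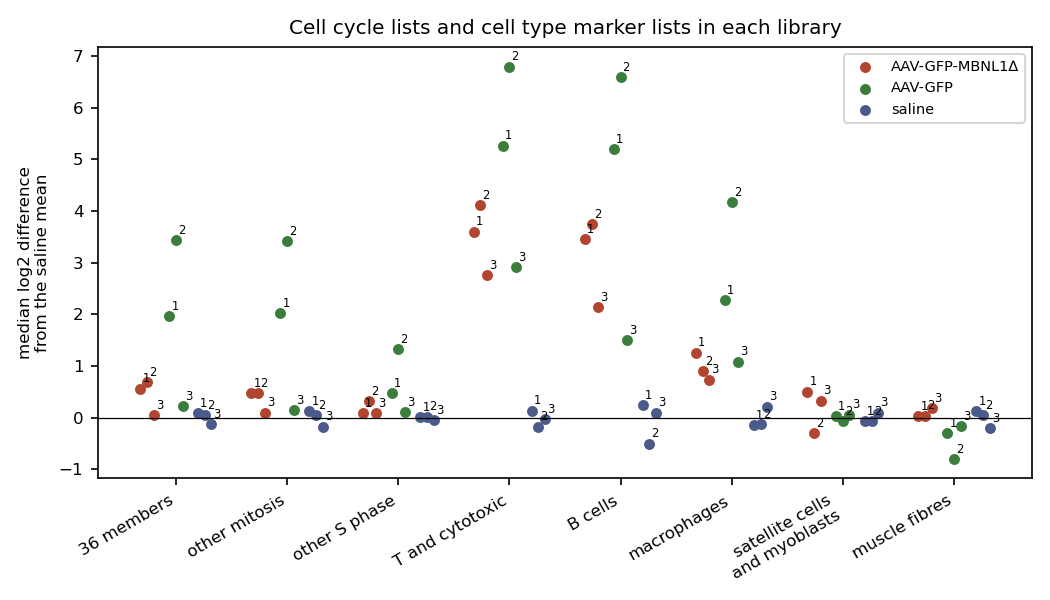
Median log2 difference from the saline mean in each library for the 36 members, other cell cycle lists and marker lists of 5 cell types, with replicate numbers. The order AAV-GFP 2, 1, 3 recurs in the members, the other mitosis and S-phase genes and the 3 leukocyte lists. By this median it is absent from the satellite cell list, although the summed CPM of that list has it. The fibro-adipogenic list, not drawn, has this order too.

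Genes of the same pathway outside the 36 were read from lists chosen by function. Of 48 other mitosis genes 46 were tested, and 13 fell and 0 rose in AAV-GFP-MBNL1∆ against AAV-GFP, beside the 10.3% and 10.8% of all genes. For AAV-GFP against saline their median log2 fold change was 2.52, with 0 called, beside 0% of all genes. In that comparison 42 were higher at an unadjusted p under 0.05, beside 15.6% of all genes. Cep55, which guides the final cut between daughter cells, fell to 0.196, 0.182 and 0.195 CPM in AAV-GFP-MBNL1∆ muscle, against 1.84, 4.54 and 0.354 CPM in AAV-GFP muscle, with 0.202, 0.167 and 0.117 CPM in saline muscle. All its AAV-GFP libraries were above both other groups (log2 fold change between the vectors -3.56 ± 0.79, adjusted p = 0.0206). Dlgap5, a spindle protein, fell likewise (-3.26 ± 0.71, adjusted p = 0.0192), as did the kinetochore gene Spc24 (-1.70 ± 0.42, adjusted p = 0.0272) and Cks2, a partner of CDKs (-2.61 ± 0.69, adjusted p = 0.0343). The calls of Cep55, Dlgap5 and Spc24 held without any of the saline or AAV-GFP libraries and were lost without any of the AAV-GFP-MBNL1∆ libraries (adjusted p up to 0.0862, 0.0877 and 0.102), and that of Cks2 held only without an AAV-GFP library.

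Of 30 other S-phase genes 29 were tested, and 4 (beside 10.3% of all genes, a share near that background) fell in AAV-GFP-MBNL1∆ against AAV-GFP: Pole and Pola1, which encode the catalytic subunits of DNA polymerases epsilon and alpha, Dut, which clears dUTP, and Mcm10, a factor of origin firing. Pole was at 1.99, 2.27 and 1.42 CPM in AAV-GFP-MBNL1∆ muscle, against 3.68, 6.64 and 2.97 CPM in AAV-GFP muscle, with 2.73, 2.80 and 2.35 CPM in saline muscle (log2 fold change between the vectors -1.23 ± 0.30, adjusted p = 0.0262). Its AAV-GFP-MBNL1∆ libraries were also below all saline libraries, a difference that was not called (-0.47 ± 0.30, adjusted p = 0.363). The call of Pole was lost without any of the AAV-GFP-MBNL1∆ libraries (adjusted p up to 0.106) and held without any other library, while Pola1, Dut and Mcm10 kept theirs only without AAV-GFP 3. The median log2 fold change of this list was 0.71 for AAV-GFP against saline. Cdt1, the licensing factor, was listed at 0 in every library and lies within the span of another gene model, Gm20388.

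The D-type cyclins and their kinases carry a cell out of rest into the cycle. Of 8 G1 cyclins, CDKs and CDC25 phosphatases tested, 2 fell in AAV-GFP-MBNL1∆ against AAV-GFP, beside 10.3% of all genes: Ccnd1 was at 9.37, 11.1 and 12.6 CPM in AAV-GFP-MBNL1∆ muscle, 17.9, 28.7 and 15.5 CPM in AAV-GFP muscle and 10.6, 10.7 and 15.5 CPM in saline muscle (-0.91 ± 0.25, adjusted p = 0.0381). Ccnd2 was at 23.9, 18.4 and 22.2 CPM in AAV-GFP-MBNL1∆ muscle, 42.5, 64.0 and 24.6 CPM in AAV-GFP muscle and 22.7, 20.7 and 21.2 CPM in saline muscle (-1.03 ± 0.29, adjusted p = 0.0421). In both genes no AAV-GFP-MBNL1∆ library reached the lowest AAV-GFP library. The call of Ccnd1 held in 3 of 9 refits that left out a library and that of Ccnd2 in 1, with adjusted p up to 0.108 and 0.123. Cdk4 and Cdk6, their kinases, were not called in any comparison.

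Of 15 CDK inhibitors and other brakes tested, 1 rose and 1 fell between the vectors, no more than the background of 10.8% and 10.3% of all genes. In AAV-GFP-MBNL1∆ against saline 1 fell, beside 4.60% of all genes, and a single call is no result about the list. Cdkn1c (p57) rose in AAV-GFP-MBNL1∆ against AAV-GFP, with 24, 23.5 and 24 CPM in AAV-GFP-MBNL1∆ muscle, 14.4, 11.7 and 19.0 CPM in AAV-GFP muscle and 19.9, 18.2 and 19.6 CPM in saline muscle (log2 fold change 0.67 ± 0.15, adjusted p = 0.0208). Gadd45a, a stress-induced growth arrest gene, fell in the same comparison (-1.07 ± 0.28, adjusted p = 0.0351). Cdkn1a (p21), the p53 target, had 21.4, 12.8 and 16.4 CPM in AAV-GFP-MBNL1∆ muscle, 27.4, 58.8 and 17.0 CPM in AAV-GFP muscle and 16.2, 19.2 and 16.1 CPM in saline muscle, and was highest in AAV-GFP 2 like the cycle genes, without a call. Rbl2 (p130), the pocket protein of resting cells, was the only brake called against saline: it fell to 57.2, 47.1 and 56.7 CPM in AAV-GFP-MBNL1∆ muscle, against 79.0, 82.2 and 72.1 CPM in saline muscle (-0.53 ± 0.12, adjusted p = 0.0291). Its partner E2f4, the repressive E2F of resting cells, rose to 40.1, 33.4 and 37.9 CPM in AAV-GFP-MBNL1∆ muscle, against 27.2, 27.0 and 28.9 CPM in saline muscle (0.42 ± 0.10, adjusted p = 0.0338), and was the only 1 of 7 other E2F genes called, beside 4.76% of all genes. Cdkn2a (p16 and p19ARF) was near 0 in saline muscle, with 0.0752, 0.182 and 0.0449 CPM in AAV-GFP-MBNL1∆ muscle, 0.222, 0.723 and 0.0443 CPM in AAV-GFP muscle and 0.0144, 0.0151 and 0.0130 CPM in saline muscle. Over the 9 refits that left out a library, the calls held in 5 for Cdkn1c, 2 for Gadd45a, 2 for Rbl2 and 3 for E2f4, with adjusted p up to 0.0807, 0.12, 0.119 and 0.126.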

How the data were processed

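RNA of gastrocnemius muscle was sequenced in 9 libraries, 3 per group, made with the KAPA mRNA HyperPrep kit from 250 ng of total RNA per the labels' protocols. The deposited files give raw read counts per gene made by the authors; the submitters' processing notes name cutadapt 2.10, STAR 2.7.5a, HTSeq 0.12.4, DESeq2 1.30.0 and mm10. The sources used here give neither annotation release nor strand setting. Rows naming no gene (16.8% to 18.3% of reads) were left out.

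From the counts, edgeR 4.0.16 (R 4.3.3) was fitted to all 9 libraries with filterByExpr, TMM scaling, robust quasi-likelihood and 1 mean per group, leaving 6 residual degrees of freedom and a common biological coefficient of variation of 0.232. A call needs an adjusted p (Benjamini-Hochberg over 18514 genes) under 0.05; SE is the absolute log2 fold change over the square root of F. Log2 differences from the saline mean in single libraries use a prior count of 2. The script was tested on simulated data. Alternatives were other scalings, filters, DESeq2 1.42.0, limma 3.58.1 with voom, a replicate block, a fold threshold and leaving out each library. Of the 55401 gene identifiers, 55141 matched GENCODE M21 (GRCm38), which gave positions, exon lengths and overlaps; promoters are RefSeq's. Replicate numbers were not taken to pair the libraries in the main fit. The 36 members and all lists were chosen with earlier results of these data known; all members are named, and of each other cell cycle list genes among the 4 with the smallest p per comparison.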

Additional observations from a re-analysis of the deposited data

How the results depend on the processing

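For AAV-GFP against saline, DESeq2 called 28 members higher beside 8.80% of all genes, and limma-voom with library quality weights 33 beside 16.6%. The main edgeR fit called 0 beside 0%. Leaving out single libraries gave 0 to 33. The share of all genes was 0.0268% without AAV-GFP 2 and 15.3% without AAV-GFP 3, and is not given for the other refits. For AAV-GFP-MBNL1∆ against saline, quality weights called 1 (Tpx2) beside 15.4% of all genes higher, the fit of these 2 groups alone 2 (Rrm2 and Tpx2) beside 12.9%, and leaving out single libraries 0 to 1.

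For AAV-GFP-MBNL1∆ against AAV-GFP, the 15 lower calls became 1 with no filter (Mcm4), 7 of 21 tested with a filter of 1 CPM in 3 libraries, 2 with limma-voom (Cdc45 and Mcm4), 0 with only the 2 groups compared, 0 with the fold threshold, and 30 lower with 1 higher (Ccne2) under DESeq2 and under quality weights; DESeq2 size factors and upper quartile scaling called the same 15 genes. Leaving out single libraries gave 0 to 30 lower and 0 to 1 higher. The median log2 fold change was -1.36 with the 1 CPM filter and -2.61 to -1.14 when single libraries were left out. The replicate block, with the replicate number as a block, called 5 members lower, 4 of them shared with the 15. Correlations of same-numbered libraries' deviations ran from -0.08 to 0.45 (AAV-GFP 3 with AAV-GFP-MBNL1∆ 3), with 7 of 9 at or under 0.1. Libraries of different numbers were not correlated, so this cannot decide whether the numbers pair the libraries. Between the vectors, the share of all genes lower was 2.07% with only the 2 groups compared, 16.2% under DESeq2 and 26.2% under quality weights. The share higher was 14.4% under DESeq2 and 24% under quality weights. For the other scalings, no filter, the 1 CPM filter, limma-voom, the fold threshold and the replicate block, the share of all genes called is not given. Whether these changes are particular to the members cannot be read from the counts, and their cause was not tested.

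The differences whose sign turned were not called in the fit of all 9 libraries. For AAV-GFP against saline, Ube2c was -0.012 under upper quartile scaling and -0.12 under quality weights, and -0.054 to 0.15 without single libraries. For AAV-GFP-MBNL1∆ against saline under quality weights, Cenpe was -0.34 and Pcna 0.0071. Without single libraries in that comparison the ranges were -0.040 to 0.30 for Cdc20, -0.18 to 0.22 for Cdc6, -0.24 to 0.93 for Cenpe, -0.41 to 0.078 for Cenpf, -0.072 to 0.45 for Foxm1, -0.32 to 0.11 for Mcm6, -0.045 to 0.028 for Pcna, -0.0036 to 0.25 for Tyms and -0.052 to 0.26 for Ube2c. Between the vectors Tpx2 was 0.025 under limma-voom, 0.17 under quality weights and 0.069 with the replicate block, and without single libraries the ranges were -0.41 to 0.52 for Tpx2, -0.52 to 0.10 for Mcm2, -0.50 to 0.095 for Mcm7 and -0.086 to 0.23 for Ube2c. Low counts limit Bub1 and Ccnb1, with 19 and 26 reads in the saline group.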

Other observations

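Within the AAV-GFP group, the ratio of replicate 2 to replicate 1 was above 1 for 35 of the 36 cell cycle genes, the exception being Ccne2 at 0.609, and it reached 3.75. Its median was 2.57 over the members, 2.55 over 46 other mitosis genes and 1.91 over 29 other S-phase genes. The corresponding medians were 5.51 for the 2 granulocyte markers tested, 3.77 for macrophage markers, 2.93 for T and cytotoxic cell markers, 2.06 for B cell markers, 1.30 for fibro-adipogenic markers, 0.686 for endothelial markers and 0.693 for muscle fibre markers. These ratios compare single libraries and carry no test.

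Adipocyte markers, which are outside the cell cycle lists, had another pattern: 2 of 5 fell in AAV-GFP-MBNL1∆ against saline and 3 of 5 against AAV-GFP, beside 4.60% and 10.3% of all genes tested. Lep, which encodes leptin, averaged 0.272 CPM in AAV-GFP-MBNL1∆, 4.37 CPM in AAV-GFP and 7.14 CPM in saline muscle, and its calls in both comparisons held when any 1 library was left out (edgeR adjusted p up to 0.0472 against AAV-GFP and 0.0406 against saline). The other calls (Adipoq and Plin1 against AAV-GFP, Fabp4 against saline) held in 1 to 3 of these 9 refits. None of the 5 was called in AAV-GFP against saline, where no gene at all was called. As with the other comparisons of AAV-GFP-MBNL1∆, vector and sex cannot be told apart here.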
